A study of Mus musculus with 27 samples.

Results

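This section concerns 36 mouse genes of cholesterol and fatty acid synthesis, of 21850 genes in the count table. They were taken by gene name and are grouped here by function: 7 enzymes of the mevalonate and isoprenoid steps, 11 enzymes from squalene to cholesterol, 5 regulators, 5 enzymes grouped under palmitate synthesis, 6 elongases and desaturases and 2 enzymes of triglyceride synthesis. Bulk RNA sequencing had been done on 27 libraries of 9 groups with 3 libraries each. One group was freshly isolated hepatocytes. The 4 groups of hepatocyte organoids (HepOrgs), which are 3-dimensional cultures grown from adult mouse hepatocytes, were kept at passage 2 for 7 or 14 days (1 or 2 weeks) in one of 2 media. HM-Wnt, the expansion medium, held gastrin, EGF, RSPO1 and WNT3a conditioned media, FGF10, FGF7, nicotinamide, HGF, CHIR, A83-01 and a ROCK inhibitor in a supplemented basal medium. MM, the minimal medium, held only Wnt conditioned medium and a ROCK inhibitor in that basal medium. The other 4 groups were periportal assembloids grown in MM. For these, 10 HepOrgs per well were aggregated with 1000 cholangiocytes (the cells of bile ducts) and with portal mesenchymal cells. A well of homeostatic assembloids received 250 mesenchymal cells and a well of fibrotic-like assembloids 2500. Both kinds were collected after 7 days or after 18 days (1 or 2.5 weeks). The cells came from adult wild-type C57BL/6 mice of both sexes, the cholangiocytes carried a nuclear tdTomato reporter, and the mesenchymal cells had been sorted as SCA1+ cells of PDGFRα-H2B-GFP reporter mice. The third fresh hepatocyte library is titled wild type, but its genotype label reads MDR2-het. The labels do not say whether the libraries of a group came from separate animals, so the p-values below measure the spread between these libraries, which may be technical.

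Cholesterol is built from acetyl-CoA. The mevalonate steps make isoprenoid units, Fdft1 joins them into squalene, Sqle and Lss turn squalene into the first sterol, and the remaining enzymes modify that sterol into cholesterol. Fatty acids start from the same acetyl-CoA, which Acly releases from citrate. Acetyl-CoA carboxylases and Fasn then build palmitate, and elongases and desaturases lengthen it and add double bonds. In the liver, Srebf2 encodes the factor best known for driving the sterol genes when cell sterol is low. Srebf1 and Mlxipl encode the factors that drive the fatty acid genes in response to insulin and to sugar, and Insig1 encodes the protein that holds the SREBP precursors back in the endoplasmic reticulum.

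The promoters of the members were searched for letters that these and other factors are known to read, and 4 are printed here: that of Hmgcs1 as a sterol gene, that of Fasn as a fatty acid gene, and those of the regulators Insig1 and Mlxipl, whose RNA levels did not overlap between fresh and cultured hepatocytes. Each runs from 250 bases before to 50 bases after a transcription start of the RefSeq annotation. These sequences are of build GRCm38.p6, whereas the reads were aligned to GRCm39, so their coordinates are not those used for gene positions further on. Capitals mark CCAAT (read by NF-Y), CACGTG (an E-box, read by factors such as the product of Mlxipl) and TCACNCCAC (a form of the sterol regulatory element), searched on both strands, so that the complement of CCAAT appears as ATTGG. The Fasn promoter is printed on the minus strand and the others on the plus strand.
Hmgcs1, chr13:119690101-119690400: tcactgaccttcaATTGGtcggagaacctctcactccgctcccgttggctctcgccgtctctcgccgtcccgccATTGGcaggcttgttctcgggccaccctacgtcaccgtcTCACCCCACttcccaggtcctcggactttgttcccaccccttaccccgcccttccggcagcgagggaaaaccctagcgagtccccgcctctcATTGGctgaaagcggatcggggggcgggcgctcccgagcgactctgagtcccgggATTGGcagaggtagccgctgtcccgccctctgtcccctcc
Fasn, chr11:120824498-120824797: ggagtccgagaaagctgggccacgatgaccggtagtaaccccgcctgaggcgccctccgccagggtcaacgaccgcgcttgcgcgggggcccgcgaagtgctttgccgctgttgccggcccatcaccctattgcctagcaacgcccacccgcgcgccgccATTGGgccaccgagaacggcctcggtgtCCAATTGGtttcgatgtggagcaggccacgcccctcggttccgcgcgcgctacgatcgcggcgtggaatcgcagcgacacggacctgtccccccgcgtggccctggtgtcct
Insig1, chr5:28071162-28071461: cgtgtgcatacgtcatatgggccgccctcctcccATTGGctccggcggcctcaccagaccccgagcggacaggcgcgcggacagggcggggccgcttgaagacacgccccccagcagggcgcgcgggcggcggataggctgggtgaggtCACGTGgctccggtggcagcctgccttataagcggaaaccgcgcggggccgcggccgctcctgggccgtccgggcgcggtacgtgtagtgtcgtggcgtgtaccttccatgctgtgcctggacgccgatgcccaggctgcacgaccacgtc
Mlxipl, chr5:135089640-135089939: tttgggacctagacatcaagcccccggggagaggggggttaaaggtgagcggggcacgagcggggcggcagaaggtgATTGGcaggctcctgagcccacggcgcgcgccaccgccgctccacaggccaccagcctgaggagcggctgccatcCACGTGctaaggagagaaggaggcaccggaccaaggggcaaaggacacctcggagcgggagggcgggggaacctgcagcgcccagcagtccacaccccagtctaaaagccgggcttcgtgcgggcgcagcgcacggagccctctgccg
In the Fasn promoter a CCAAT and its complement overlap. Of the 36 members, 29 were matched in the RefSeq table, with 37 promoters. CCAAT was present in 26 of the 37 member promoters, or 70.3%, and in 37.4% of all 32851 promoters of the table. CACGTG was present in 6 of them, or 16.2%, against 7.15% of all, namely in promoters of Dhcr7, Elovl5, Hsd17b7, Insig1, Mlxipl and Sc5d. TCACNCCAC was present in 2 of them, those of Hmgcs1 and a second start of Mlxipl, against 1.24% of all. These are descriptions of letters in windows of the same length. Sqle, Scd1, Scd2, Fdps, Fdft1, Fads1 and Dgat2 were not matched.

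Values are given as normalised CPM, that is read counts divided by a library size that scales the libraries to each other, and in the order of the 3 libraries of a group. The total read count per library was between 30289364 and 65348596 with a median of 43727965, and each of the 36 members passed the filter on low counts in every comparison. Before the results, 3 assembloid libraries stood apart in the summed level of 7 hepatocyte marker genes (Alb, Hpx, Hnf4a, Asgr1, Apoa1, Cps1 and Tat). Their summed level was 75942, 2081 and 37219.6 CPM in the homeostatic assembloids at 1 week, 16734, 19773 and 2655 CPM in the fibrotic-like assembloids at 1 week and 40549, 10221 and 49713 CPM in the fibrotic-like assembloids at 2.5 weeks. The second, the third and the second library of these groups were the low ones. Not every single marker stood apart. Hnf4a was at 155, 95.6 and 95.3 CPM in these 3 libraries, against 108 to 202 CPM in the other assembloid libraries. Cps1 was at 0, 0 and 16.2 CPM, against 2.57 to 25.6 CPM. Duct genes differed in these 3 libraries too. Krt19 was at 1387, 951 and 1649 CPM, against 13.8 to 258 CPM in the other assembloid libraries. Epcam was at 549, 417 and 502 CPM, against 7.22 to 138 CPM. Krt7 and Cldn4 were also highest in them, Spp1 was lowest (3172, 3650 and 5079 CPM) and Sox9 did not stand apart. In the low homeostatic library 8463 genes were detected, against 14012 to 16013 in the other 26, and 11 members were below 1 CPM. Assembloid results are therefore given with and without these 3 libraries. This was decided after the data were seen, so adjusted p from fits without them may be too small. Fresh hepatocytes held 53954 to 86304 CPM of the 7 hepatocyte markers and HepOrgs 19182 to 52612 CPM, with Cps1, the first enzyme of the urea cycle, at 3801 to 5363 CPM in fresh hepatocytes and 3.38 to 56.8 CPM in HepOrgs.

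**Figure D1:**
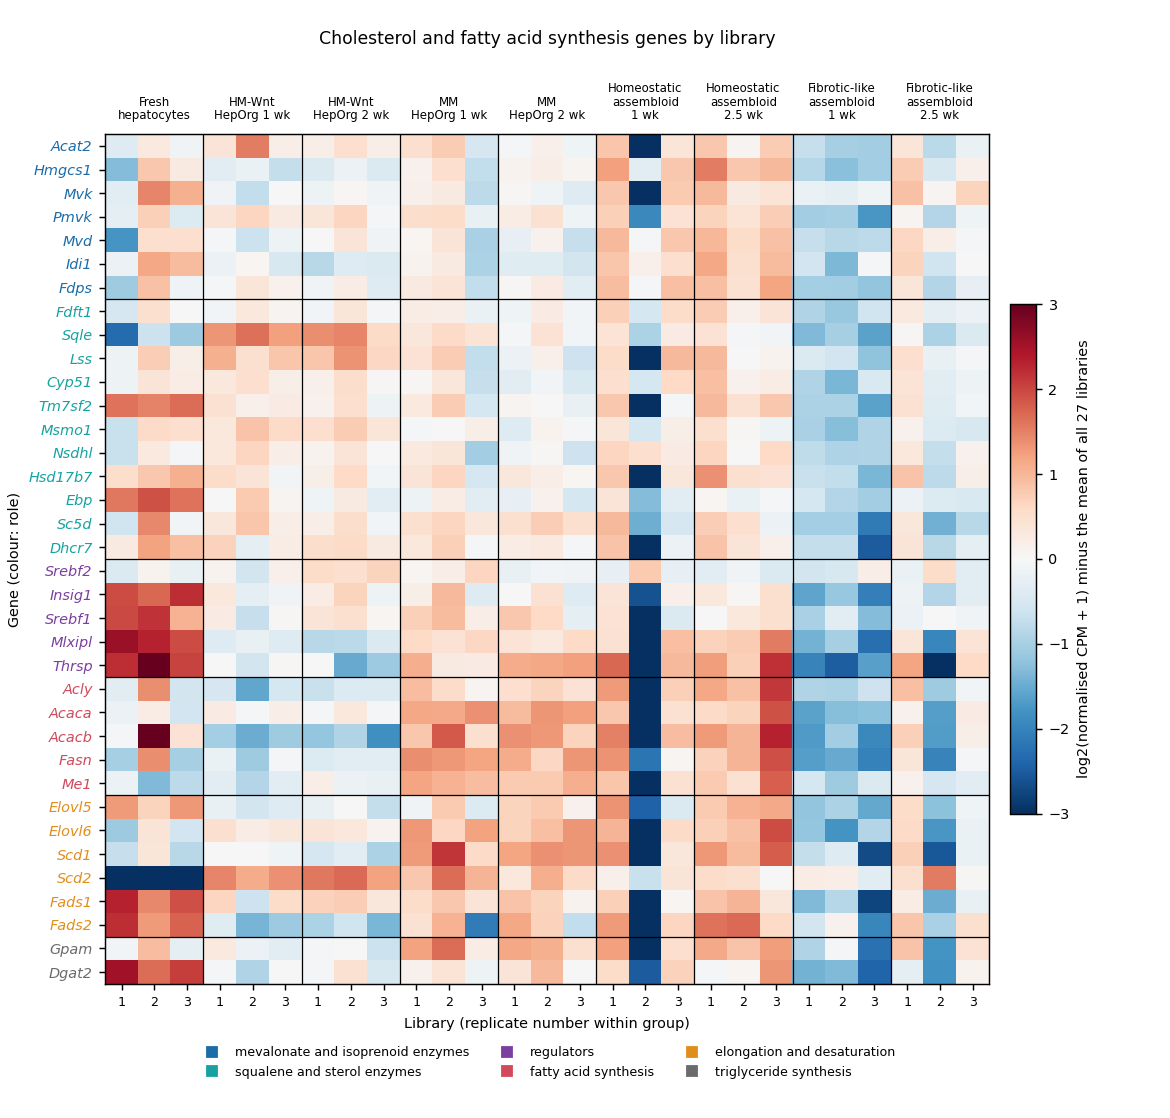
Level of the 36 members in each of the 27 libraries, as log2(CPM + 1) minus the gene's mean over the 27 libraries; rows are genes coloured by role, columns are libraries by condition, and the colour scale stops at -3 and 3. The second homeostatic library at 1 week is the darkest blue column, and Scd2 is darkest in the 3 fresh hepatocyte libraries.

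The first comparison asked how far the lipid synthesis genes of hepatocytes kept their level in organoid culture. Compared with fresh hepatocytes, HepOrgs had lower levels of most regulators, of the desaturase Fads1 and of Dgat2, and higher levels of Sqle and of Scd2, in either medium. The enzymes of palmitate synthesis were split by medium: in MM, Acaca and Me1 were higher than in fresh hepatocytes, together with Scd1 and Elovl6, whereas in HM-Wnt none of the fatty acid enzymes except Scd2 was called higher and Fads2, another desaturase, was called lower. In HM-Wnt at 1 week 16 of 36 members passed an adjusted p of 0.05 in edgeR's quasi-likelihood test (2 higher and 14 lower), beside 49.7% of all genes tested. At 2 weeks in HM-Wnt it was 16 (3 higher and 13 lower) beside 51.8%, in MM at 1 week 15 (6 higher and 9 lower) beside 42.8%, and in MM at 2 weeks 16 (6 higher and 10 lower) beside 39.7%. The shares of members called were thus close to those of all genes.

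The median log2 fold change of the members was -0.47 and -0.47 in HM-Wnt and -0.13 and -0.30 in MM, while that of all genes lay between -0.0088 and 0.032. All 4 comparisons share the 3 fresh libraries. On the scale of log2(TPM + 1), in which the median of all genes itself moved up by 0.37 to 0.64, the split was 12 higher and 11 lower, 13 and 8, 12 and 6, and 10 and 5 in the same order, and none of the members called in the count test changed direction. Of 9671 genes tested on that scale, 4160 were called higher and 1280 lower, 5844 and 1074, 4492 and 911, and 3816 and 899. The second fresh library was high in many members. Without it, the count test called 11 members higher and 8 lower in MM at 1 week and 10 higher and 7 lower in MM at 2 weeks. Of 13679 genes tested, 5571 and 5368 were called in these 2 fits. Without the third fresh library, whose labels disagree, 14, 16, 14 and 14 members were called, beside 5906, 6214, 4755 and 4567 of 13642 genes. In bulk libraries, fewer cells of a type and less RNA per cell cannot be told apart.

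**Figure D2:**
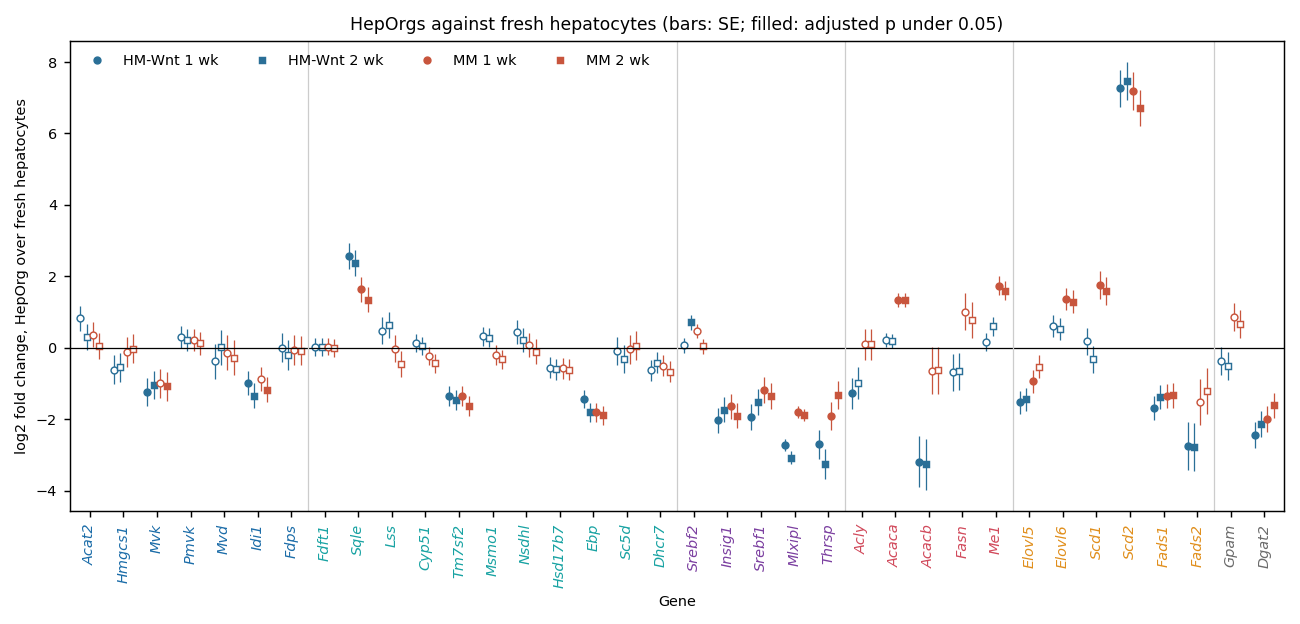
Log2 fold change of each member in HepOrgs against fresh hepatocytes, in HM-Wnt and in MM at 1 and 2 weeks; bars are standard errors, and filled points passed an adjusted p of 0.05. Scd2 sits above 6 in all 4 comparisons, and Mlxipl, Thrsp, Insig1, Srebf1, Dgat2, Ebp, Tm7sf2 and Fads1 sit below 0 with filled points in all 4.

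Of the 5 regulators, 4 fell in every HepOrg group. Mlxipl (chr5:135118744-135168615 in GRCm39), which encodes the carbohydrate-responsive factor ChREBP, was at 254, 206 and 163 CPM in fresh hepatocytes. It was at 31.4, 34.9 and 31.4 CPM in HM-Wnt at 1 week and 22.6, 23.1 and 30.1 CPM at 2 weeks, and at 62.6, 55.8 and 63.2 CPM in MM at 1 week and 55.0, 50.7 and 62.5 CPM at 2 weeks. The 3 kinds of library did not overlap, with fresh hepatocytes highest, MM between and HM-Wnt lowest. The log2 fold change against fresh hepatocytes was -2.72 ± 0.18 (SE; adjusted p = 1.6e-07) and -3.08 ± 0.18 (SE; adjusted p = 7.3e-08) in HM-Wnt and -1.80 ± 0.17 (SE; adjusted p = 4.0e-06) and -1.88 ± 0.17 (SE; adjusted p = 3.2e-06) in MM, in edgeR's test with Benjamini-Hochberg adjustment, as for every adjusted p in this section. In TPM, Mlxipl was at 15.9 to 24.5 in fresh hepatocytes and 3.46 to 10.5 in HepOrgs.

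Thrsp, whose product is tied to the lipogenic response to thyroid hormone and carbohydrate, was at 1047, 1834 and 918 CPM in fresh hepatocytes. In HM-Wnt it was at 221, 152 and 229 CPM at 1 week and 224, 78.1 and 105 CPM at 2 weeks, and in MM at 481, 271 and 266 and 485, 498 and 526 CPM. Every HepOrg library lay below every fresh library, with a log2 fold change of -3.26 ± 0.42 (SE; adjusted p = 3.3e-05) at 2 weeks in HM-Wnt and -1.32 ± 0.39 (SE; adjusted p = 0.016) at 2 weeks in MM. The last of these was not called without the second fresh library, which held the highest level. Insig1 (chr5:28276315-28283668) was at 519.8, 444 and 627 CPM in fresh hepatocytes and at 101 to 263 CPM in the 12 HepOrg libraries, again without overlap. In HM-Wnt it was at 166, 111 and 124 CPM at 1 week and 157, 214 and 120.1 CPM at 2 weeks. In MM it was at 151, 263 and 101 and 135, 184 and 102 CPM. Its log2 fold change was -2.04 ± 0.36 (SE; adjusted p = 0.00045), -1.73 ± 0.36 (SE; adjusted p = 0.0012), -1.64 ± 0.35 (SE; adjusted p = 0.0025) and -1.90 ± 0.36 (SE; adjusted p = 0.0010) in the order HM-Wnt at 1 and 2 weeks and MM at 1 and 2 weeks. In TPM it was at 256 to 406 in fresh hepatocytes and 80.1 to 236 in HepOrgs.

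The 2 SREBP genes differed: Srebf1 was called lower in every HepOrg group, whereas Srebf2 was called only in HM-Wnt at 2 weeks, where it was higher. Srebf1 (chr11:60089913-60113407) was at 381, 438 and 198 CPM in fresh hepatocytes, at 114, 58.8 and 98.5 CPM and 125, 134 and 100.3 CPM in HM-Wnt at 1 and 2 weeks, and at 157, 185 and 111 CPM and 169.5, 145 and 79.9 CPM in MM. The third fresh library was the lowest of the 3 and lay close above the highest MM library. The log2 fold change was -1.94 ± 0.37 (SE; adjusted p = 0.00077) and -1.53 ± 0.36 (SE; adjusted p = 0.0033) in HM-Wnt and -1.18 ± 0.36 (SE; adjusted p = 0.018) and -1.34 ± 0.36 (SE; adjusted p = 0.0098) in MM. On the log2(TPM + 1) scale the direction held, but only HM-Wnt at 1 week passed the threshold (-1.35, -0.63, -0.51 and -0.81), with 39.8 to 78.5 TPM in fresh hepatocytes and 13.2 to 51.7 TPM in HepOrgs. In MM at 1 week the count test also lost its call without the third MM library or without either of the first 2 fresh libraries.

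Srebf2 (chr15:82031382-82093201) was at 26.8, 39.6 and 31.0 CPM in fresh hepatocytes and at 39.6, 24.5 and 40.8 CPM in HM-Wnt at 1 week. At 2 weeks in HM-Wnt it was at 53.9, 52.1 and 58.4 CPM, above every fresh library, with a log2 fold change of 0.72 ± 0.21 (SE; adjusted p = 0.011). In MM it was at 37.7, 42.0 and 57.3 CPM at 1 week and 31.3, 34.6 and 33.9 CPM at 2 weeks, values that overlapped those of fresh hepatocytes (log2 fold change 0.47 ± 0.21 and 0.05 ± 0.21, SE). Its TPM ran from 2.16 to 2.87 in fresh hepatocytes and from 2.22 to 8.69 in HepOrgs.

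Among the 18 enzymes of cholesterol synthesis, 1 was called higher in each comparison with fresh hepatocytes, and 4, 4, 2 and 4 were called lower. The higher one was Sqle (chr15:59186869-59203043), the squalene epoxidase and one of the rate-controlling steps of the pathway. It was at 83.2, 265 and 197 CPM in fresh hepatocytes, 1053, 1324 and 981 CPM and 1105, 1158 and 625 CPM in HM-Wnt at 1 and 2 weeks, and 529.9, 625 and 559.6 CPM and 407, 569.6 and 398 CPM in MM. No HepOrg library overlapped a fresh one, and the HM-Wnt libraries lay above the MM libraries except for the third at 2 weeks, which was level with the highest MM library. The log2 fold change was 2.57 ± 0.37 (SE; adjusted p = 9.5e-05) and 2.37 ± 0.37 (SE; adjusted p = 0.00015) in HM-Wnt and 1.63 ± 0.36 (SE; adjusted p = 0.0026) and 1.35 ± 0.35 (SE; adjusted p = 0.0086) in MM.

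Ebp, the sterol isomerase, was at 301, 381 and 312 CPM in fresh hepatocytes and at 79.1 to 175 CPM in HM-Wnt and 69.2 to 117 CPM in MM. In MM at 1 and 2 weeks its 3 libraries were at 89.8, 117 and 79.9 CPM and 84.6, 111 and 69.2 CPM, and the log2 fold change was -1.81 ± 0.27 (SE; adjusted p = 0.00015) and -1.89 ± 0.27 (SE; adjusted p = 0.00012). Tm7sf2, a sterol reductase, was at 204, 184 and 209.9 CPM in fresh hepatocytes and at 44.6 to 112 CPM in HepOrgs, and it fell by 1.37, 1.46, 1.35 and 1.64 on the log2 scale in HM-Wnt at 1 and 2 weeks and MM at 1 and 2 weeks. Both genes were called in all 4 comparisons, with no overlap between fresh and HepOrg libraries. Of the mevalonate enzymes, Idi1, which isomerises the isoprenoid unit, and Mvk, the mevalonate kinase, were called lower in 3 comparisons each, with log2 fold changes of -0.99, -1.34 and -1.18 and of -1.24, -1.05 and -1.08 in HM-Wnt at 1 and 2 weeks and MM at 2 weeks. In MM at 1 week they were at -0.87 ± 0.35 and -1.0 ± 0.40 (SE) and not called. Their fresh values, 36.8, 93.7 and 80.6 CPM and 18.4, 66.8 and 50.0 CPM, were lowest in the first fresh library. That library reached down into the HepOrg values for Mvk, and for Idi1 only at 1 week, since at 2 weeks the Idi1 values of both media (23.1 to 32.2 CPM) lay below it. When each of the 6 libraries was left out in turn, Mvk lost its call in 3, 5 and 5 fits and Idi1 in 4, 0 and 3, in the same order. Without the second fresh library Mvk was at -0.84, -0.64 and -0.67 and Idi1 at -0.72, -1.08 and -0.90. With the replicate block Mvk was not called at 2 weeks in either medium (adjusted p = 0.057 and 0.064). On the log2(TPM + 1) scale none of these 3 Mvk differences passed the threshold, and of the Idi1 differences none did either.

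The other 13 cholesterol enzymes passed the threshold in none of the 4 comparisons. These were Acat2, Hmgcs1, Pmvk, Mvd and Fdps of the mevalonate and isoprenoid steps, and Fdft1, Lss, Cyp51, Msmo1, Nsdhl, Hsd17b7, Sc5d and Dhcr7 of the steps from squalene on. Their log2 fold changes ran from -0.68 (Dhcr7 in MM at 2 weeks) to 0.82 (Acat2 in HM-Wnt at 1 week). The fresh libraries themselves differed widely in these genes. Hmgcs1, the cytosolic HMG-CoA synthase, was at 199.5, 868 and 593 CPM, Fdps, which makes farnesyl diphosphate, at 262, 1014 and 503 CPM, and Sc5d, a sterol desaturase, at 335, 1374 and 474 CPM. The second fresh library was the highest of the 3 in each of them, and the HepOrg libraries ran from 297 to 706 CPM for Hmgcs1, inside the range of the fresh ones. Without that library Sc5d was called higher in HM-Wnt at 1 week and in MM at 1 and 2 weeks (0.75, 0.79 and 0.92) and Pmvk, the phosphomevalonate kinase, in HM-Wnt at 1 week (0.75). Without the first fresh library Hmgcs1 was called lower in HM-Wnt (-1.0 and -0.94).

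Among the fatty acid genes the largest difference was that of Scd2, a stearoyl-CoA desaturase known mainly from tissues other than adult liver, which neighbours Scd1 on chromosome 19 (chr19:44281613-44295303 and chr19:44382894-44399154). Scd2 was at 1.17, 4.86 and 2.07 CPM in fresh hepatocytes, from 44, 111 and 68 reads. It was at 475, 370.3 and 444 CPM and 514, 563 and 400.4 CPM in HM-Wnt at 1 and 2 weeks, and at 299, 550.2 and 349 CPM and 213, 369 and 258 CPM in MM. Every HepOrg library was above every fresh library. The log2 fold change was 7.26 ± 0.52 (SE; adjusted p = 3.9e-07) and 7.47 ± 0.53 (SE; adjusted p = 2.6e-07) in HM-Wnt and 7.19 ± 0.52 (SE; adjusted p = 5.1e-07) and 6.70 ± 0.51 (SE; adjusted p = 8.6e-07) in MM.

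Scd1, the main stearoyl-CoA desaturase of liver, was at 5793, 11909 and 5239.5 CPM in fresh hepatocytes. It was at 9174, 9186 and 8506 CPM and 6529.6, 7369.6 and 4826 CPM in HM-Wnt, within the fresh range but for the third library at 2 weeks, and at 22734, 40929 and 13791 CPM and 21239, 23955 and 23151 CPM in MM, above every fresh library. The difference was called only in MM, with log2 fold changes of 1.75 ± 0.39 (SE; adjusted p = 0.0032) and 1.59 ± 0.39 (SE; adjusted p = 0.0060), against 0.18 ± 0.38 and -0.33 ± 0.38 (SE) in HM-Wnt. Of the reads on the 2 genes together, Scd2 took 0.0335% ± 0.0115 (SD, n = 3) in fresh hepatocytes, 4.59% ± 0.617 and 7.35% ± 0.285 in HM-Wnt at 1 and 2 weeks, and 1.70% ± 0.667 and 1.20% ± 0.278 in MM. These shares are of reads and not per length. The genes are close paralogs, and how reads shared between them were counted is not known, so the smaller shares are uncertain.

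Me1, the malic enzyme that supplies NADPH, was at 148, 66.5 and 97.1 CPM in fresh hepatocytes, 136, 90.9 and 133 CPM and 194, 149 and 143 CPM in HM-Wnt, and 379, 349 and 319 CPM and 288, 291 and 357 CPM in MM. Only the MM libraries lay wholly above the fresh ones, by 1.73 ± 0.27 (SE; adjusted p = 0.00022) and 1.59 ± 0.27 (SE; adjusted p = 0.00043) on the log2 scale. Acaca, the cytosolic acetyl-CoA carboxylase, rose in MM by 1.35 ± 0.20 and 1.33 ± 0.20 and the elongase Elovl6 by 1.36 ± 0.31 and 1.29 ± 0.31 (log2 fold change, SE), with adjusted p of 0.00016, 0.00019, 0.0038 and 0.0055. In HM-Wnt neither passed the threshold (Acaca 0.22 and 0.19, Elovl6 0.60 and 0.53), but without the second fresh library Elovl6 was called there too (1.14 and 1.07).

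Acacb, the carboxylase that regulates fatty acid oxidation at the mitochondrion, fell in HM-Wnt, at -3.19 ± 0.71 and -3.27 ± 0.71 (log2 fold change, SE; adjusted p = 0.0024 and 0.0019). It was at 14.1, 125 and 20.0 CPM in fresh hepatocytes, 6.68, 4.56 and 6.44 CPM and 5.95, 7.37 and 3.37 CPM in HM-Wnt, and 26.2, 54.9 and 20.6 CPM and 39.2, 37.1 and 23.9 CPM in MM. The second fresh library stood far above the other 2, and without it the MM differences, -0.65 and -0.64 and not called, turned to 0.97 and 1.00, while those in HM-Wnt were -1.56 and -1.64. Fasn, the fatty acid synthase, was at 219, 1153 and 219 CPM and Acly, the ATP citrate lyase, at 464, 1511 and 395 CPM in fresh hepatocytes, again with 1 high library. Fasn was called in none of the 4 comparisons (-0.69, -0.67, 1.00 and 0.78 in the order HM-Wnt at 1 and 2 weeks and MM at 1 and 2 weeks). Without the second fresh library these values became 0.59, 0.61, 2.27 and 2.06, so that the direction in HM-Wnt turned and the difference in MM was called (adjusted p = 0.00010 and 0.00021). Acly was called only in HM-Wnt at 1 week (-1.28 ± 0.45 (SE; adjusted p = 0.029)), and not without the second library of either group. In MM it was at 0.09 and 0.09, and without the second fresh library it was called higher there, at 0.96 and 0.99.

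**Figure D3:**
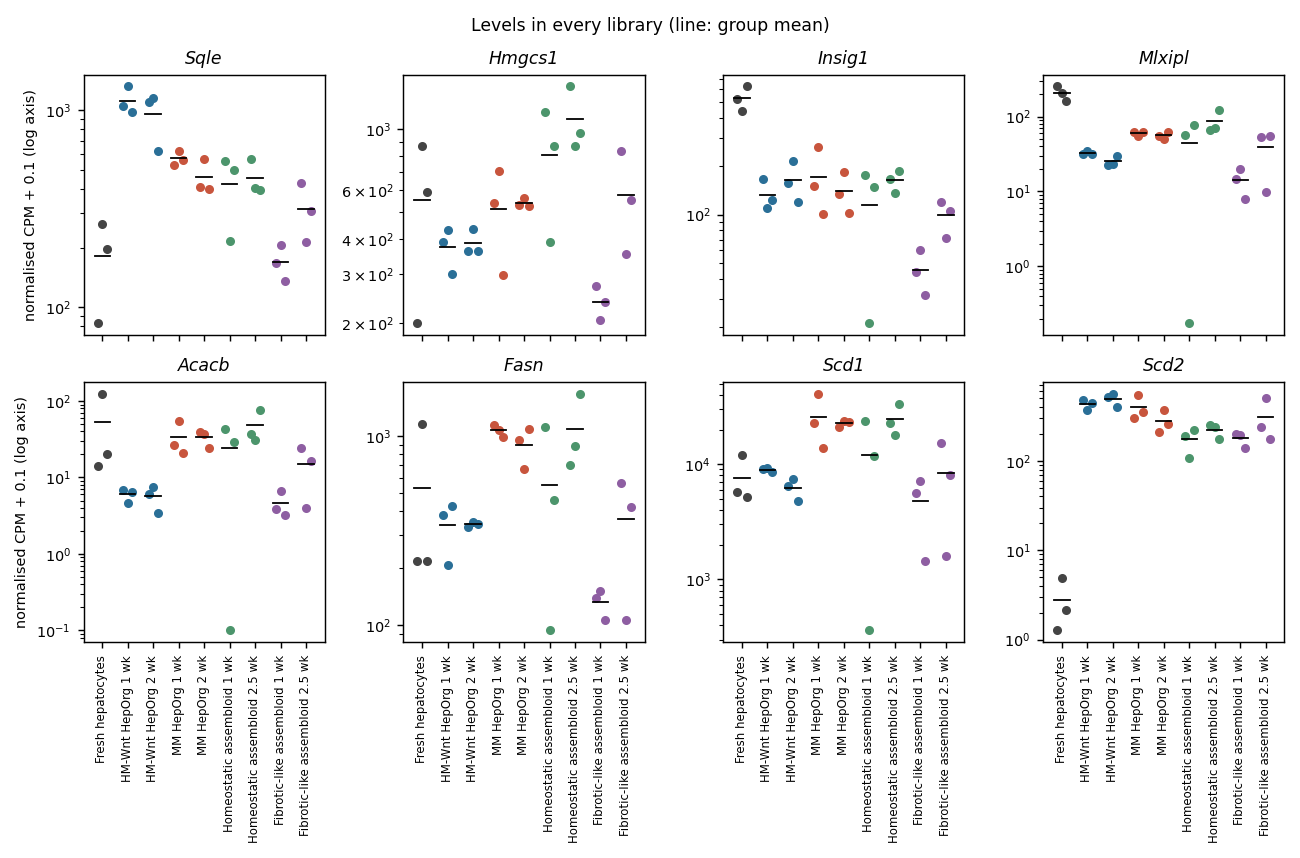
CPM + 0.1 of Sqle, Hmgcs1, Insig1, Mlxipl, Acacb, Fasn, Scd1 and Scd2 in each of the 27 libraries on log axes; points are single libraries and lines are group means of 3. Scd2 is between 1.17 and 4.86 CPM in the fresh hepatocytes and at least 107 CPM in the other 24 libraries, and 5 of the 6 HM-Wnt libraries are above all others for Sqle, the sixth being level with the highest MM library.

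Among the genes of polyunsaturated fatty acids and triglycerides, Fads1 and Dgat2 were called lower in every HepOrg group and Fads2 in HM-Wnt. Fads2, the delta-6 desaturase, was at 1671, 877 and 1239 CPM in fresh hepatocytes, 279, 137 and 168 CPM and 186, 238 and 139.8 CPM in HM-Wnt, and 493, 748 and 83.8 CPM and 808, 587 and 215 CPM in MM. All 12 HepOrg libraries lay below the fresh ones, but the MM libraries spread widely and the difference was called only in HM-Wnt (-2.74 ± 0.67 (SE; adjusted p = 0.0043) and -2.79 ± 0.67 (SE; adjusted p = 0.0037), against -1.52 ± 0.64 and -1.21 ± 0.64 in MM). Without the second MM library at 1 week it was called there as well (-2.13). Its neighbour Fads1, the delta-5 desaturase, was called lower in all 4 comparisons, at -1.69, -1.37, -1.36 and -1.34, and the elongase Elovl5 in the first 3, at -1.53, -1.44 and -0.94, with -0.54 in MM at 2 weeks. The call of Elovl5 in MM at 1 week was lost in 4 of the 6 fits that left out 1 library, those without the first or the third library of either group. Dgat2, which makes triglyceride, was at 1804, 997 and 1324 CPM in fresh hepatocytes, 303, 165 and 309 CPM and 307, 431 and 224 CPM in HM-Wnt, and 344, 416 and 279.5 CPM and 408, 615 and 313 CPM in MM, without overlap. Its log2 fold change was -2.45 ± 0.36 (SE; adjusted p = 0.00012), -2.14 ± 0.36 (SE; adjusted p = 0.00029), -2.00 ± 0.36 (SE; adjusted p = 0.00068) and -1.61 ± 0.35 (SE; adjusted p = 0.0029). Gpam, the acyltransferase of the first step, was called in none of them (-0.51 to 0.87).

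Other genes of lipid synthesis and its control were followed as a list of 32, of which 31 were tested. Against fresh hepatocytes 3 were called higher and 13 lower in HM-Wnt at 1 week, 4 and 14 at 2 weeks, 4 and 11 in MM at 1 week and 4 and 9 at 2 weeks. Elovl3, an elongase of very long chain fatty acids, was the lowest in all 4. It was at 281, 1018 and 1762 CPM in fresh hepatocytes and at 0 to 0.956 CPM in HM-Wnt and 0.972 to 13.6 CPM in MM. Elovl2, which elongates polyunsaturated fatty acids, was next, with log2 fold changes of -2.30, -3.0, -2.04 and -2.07. The elongase Elovl7 was the highest in all 4, at 0.0533, 0.131 and 0.244 CPM in fresh hepatocytes and 21.9 to 46.2 CPM in HepOrgs. Ggps1, which makes the isoprenoid geranylgeranyl diphosphate, came next in HM-Wnt (1.05 ± 0.23 and 0.91 ± 0.23), the SREBP protease gene Mbtps2 in MM at 1 week (0.92 ± 0.21) and the acyl-CoA synthetase Acsl3 in MM at 2 weeks (1.27 ± 0.39, SE).

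Markers of other cells also differed between fresh hepatocytes and HepOrgs. The 6 cholangiocyte markers summed to 11.6 to 143 CPM in fresh hepatocytes and 3571 to 15496 CPM in HepOrgs, most of it from Spp1 (3471 to 15430.4 CPM), while Krt19, a defining keratin of bile ducts, was at 0.996 to 22.4 CPM. The 4 endothelial markers summed to 24.1 to 111 CPM in fresh hepatocytes and 0.294 to 1.86 CPM in HepOrgs, and the 4 immune markers to 22.3 to 179 CPM and 6.25 to 44.7 CPM, with the Kupffer cell gene Clec4f at 0 in all HepOrg libraries. The 8 mesenchyme markers summed to 21.7 to 152 CPM and 18.5 to 269 CPM, and the 4 adipocyte markers to 0.0266 to 0.613 CPM and 2.72 to 22.3 CPM, nearly all from Cidea. Of the 7 hepatocyte markers 4, 5, 5 and 5 were called lower, in the order used above, and 1 was called higher in MM at 2 weeks. Hpx was at 37589, 28227 and 12952 CPM in MM at 2 weeks and at 5683, 9497 and 5233 CPM in fresh hepatocytes. The part of these cells in the differences of the members was not tested.

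The second comparison asked what the change of medium did to HepOrgs. In MM, the enzymes of palmitate synthesis, Scd1 and the regulators Mlxipl and Thrsp were higher than in HM-Wnt, while Sqle, Lss and Msmo1 were lower. All 5 enzymes grouped under palmitate synthesis (Acly, Acaca, Acacb, Fasn and Me1) were called higher in MM at 1 week, at 2 weeks and over both times. Acacb is counted there, although it regulates fatty acid oxidation. Over both times Scd1, Elovl5, Elovl6, Thrsp, Mlxipl and Gpam were also called higher, and Sqle, Lss and Msmo1 lower, and no mevalonate enzyme of 7 passed the threshold. At 1 week 7 members were called, all of them higher, beside 2.98% of all genes tested. At 2 weeks 10 were called (9 higher and 1 lower) beside 11.5%, and over both times 14 (11 higher and 3 lower) beside 21.5%. The median log2 fold change of the members over both times was 0.12, against -0.0171 for all genes.

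HepOrg libraries with the same replicate number deviated together, so the comparison was also made with the replicate number as a block. The block gave 10 members at 1 week (9 higher and 1 lower, beside 9.48% of all genes), 16 at 2 weeks (11 higher and 5 lower, beside 19.6%) and 17 over both times (13 higher and 4 lower, beside 28.9%). It lost none of the members called without it. At 1 week it added Elovl6, Gpam and, as a lower gene, Sqle, and over both times it added Cyp51, Fads2 and Hmgcs1. At 2 weeks it added Elovl5 and Gpam as higher genes and Msmo1, Srebf2, Scd2 and Lss as lower ones. On the log2(TPM + 1) scale, where the median of all genes stood at -0.26 at 2 weeks, 5 members were called higher and 5 lower at 2 weeks, and 10 and 4 over both times.

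**Figure D4:**
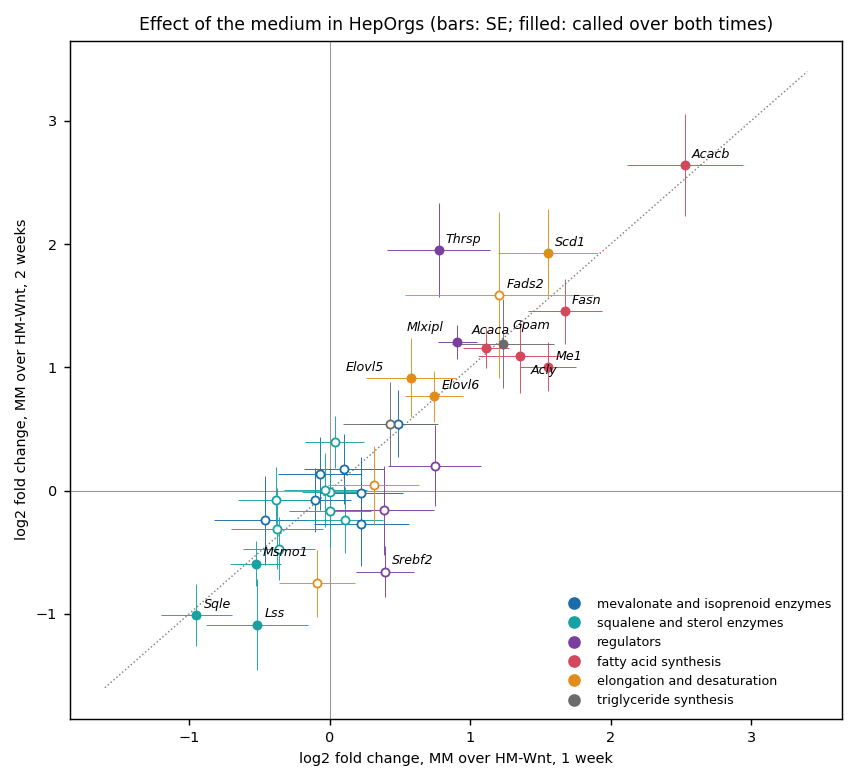
Log2 fold change of each member between MM and HM-Wnt at 1 week (horizontal axis) and at 2 weeks (vertical axis), coloured by role; bars are standard errors, filled points were called over both times and the dotted line marks equal change. The 5 enzymes grouped under palmitate synthesis lie between 1.00 and 2.64 on both axes, and Sqle, Lss and Msmo1 lie below 0 on both.

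Acacb differed most, from 3.37 to 7.37 CPM in HM-Wnt to 20.6 to 54.9 CPM in MM, without overlap at either time. Its log2 fold change was 2.53 ± 0.41 (SE; adjusted p = 0.013) at 1 week, 2.64 ± 0.41 (SE; adjusted p = 0.0032) at 2 weeks and 2.58 ± 0.29 (SE; adjusted p = 0.00031) over both. Fasn was at 382, 208 and 425 CPM and 330.2, 352 and 344 CPM in HM-Wnt at 1 and 2 weeks and at 1145, 1077 and 994 CPM and 949, 671 and 1086 CPM in MM. All 6 MM libraries lay above all 6 HM-Wnt libraries, and the log2 fold change was 1.67 ± 0.27 (SE; adjusted p = 0.012), 1.45 ± 0.26 (SE; adjusted p = 0.0065) and 1.56 ± 0.19 (SE; adjusted p = 0.00042) over both. For Scd1, whose levels are given above, the MM libraries again lay above the HM-Wnt libraries, with 1.55 ± 0.35 (SE; adjusted p = 0.041), 1.93 ± 0.36 (SE; adjusted p = 0.0074) and 1.74 ± 0.25 (SE; adjusted p = 0.0010).

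Acaca was at 101, 81.2 and 97.6 CPM and 83.0, 106 and 83.4 CPM in HM-Wnt and at 190.3, 189 and 221 CPM and 165, 215 and 202 CPM in MM, and Acly at 407, 195 and 399 CPM and 359, 435 and 435 CPM in HM-Wnt and at 1089.6, 842 and 609 CPM and 819, 908 and 778 CPM in MM. For both genes the media did not overlap at either time. Over both times Acaca rose by 1.13 ± 0.12 (SE; adjusted p = 0.00018) and Acly by 1.22 ± 0.21 (SE; adjusted p = 0.0028) on the log2 scale. Me1 rose by 1.28 ± 0.14 (SE; adjusted p = 0.00028). Elovl6 was at 133, 109.7 and 120.0 CPM and 123, 118 and 103 CPM in HM-Wnt and 235, 146 and 221 CPM and 149.7, 177 and 237 CPM in MM, and was called at 2 weeks (0.77 ± 0.21 (SE; adjusted p = 0.037)) and over both times (0.75 ± 0.15 (SE; adjusted p = 0.0049)), but not at 1 week (0.74 ± 0.21). The call of Elovl6 at 2 weeks was lost when any of the 6 libraries was left out. Among the calls at 1 week, that of Mlxipl and of Fasn was lost without the first MM library, that of Acacb without the second HM-Wnt library, and those of Acly and Scd1 without any of 4 and of 5 of the 6 libraries. At 2 weeks the calls of Acly and Sqle were lost without any of 5 and of 4 of the 6 libraries, and over both times that of Elovl5 without any of 8 of the 12.

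Of the regulators, Mlxipl rose by 1.06 ± 0.10 (SE; adjusted p = 9.8e-05) and Thrsp by 1.36 ± 0.26 (SE; adjusted p = 0.0048) over both times. Thrsp was called at 2 weeks (1.95 ± 0.38 (SE; adjusted p = 0.0091)) and not at 1 week (0.78 ± 0.37). Srebf1 was at 0.48 ± 0.23, Insig1 at 0.11 ± 0.25 and Srebf2 at -0.13 ± 0.15 (log2 fold change, SE), and none of these passed the threshold. Whether the effect of the medium changed between 1 and 2 weeks was tested directly: 0 members and 0.0% of all genes passed, with 2 members at an unadjusted p under 0.05 in edgeR and 0 members called by DESeq2. Those 2 were Srebf2, with a difference of the 2 log2 fold changes of -1.05 ± 0.29 (SE; adjusted p = 0.67), and Thrsp, with 1.18 ± 0.52 (adjusted p = 0.67).

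Of the genes that were lower in MM, Sqle had the largest difference. With the levels given above, it fell over both times, with a log2 fold change of -0.98 ± 0.18 (SE; adjusted p = 0.0035). Lss, the lanosterol synthase, was at 175, 117 and 149.8 CPM and 149, 213 and 128 CPM in HM-Wnt and at 113, 141 and 49.8 CPM and 73.2, 93.1 and 53.7 CPM in MM, and fell with -0.80 ± 0.26 (SE; adjusted p = 0.047). Its media overlapped at 1 week and separated at 2 weeks, and its call was lost in 9 of the 12 fits that left out 1 library. Msmo1, the sterol methyl oxidase, was at 367, 533 and 435 CPM and 415, 499 and 377 CPM in HM-Wnt and at 287, 294 and 333 CPM and 225, 317 and 280.0 CPM in MM, without overlap at either time, and fell with -0.56 ± 0.13 (SE; adjusted p = 0.011).

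Of the 31 other pathway genes tested, 1 was called at 1 week (Pklr, 1.38 ± 0.25), 4 at 2 weeks and 6 over both times, all of them higher in MM. Over both times Elovl3 rose by 3.86 ± 0.73 and Pklr, the liver pyruvate kinase, by 1.47 ± 0.17, and the lowest of the 6 were Lpin2, a phosphatidate phosphatase, at 0.73 ± 0.18 and Dgat1, an enzyme of triglyceride synthesis, at 0.41 ± 0.09 (log2 fold change, SE). Beside these differences, the median log2 fold change of the 7 hepatocyte markers was -0.75 at 1 week and 0.29 at 2 weeks, with 0 and 2 of 7 called, and 0.13 over both times with 2 called higher and 1 lower. The 8 mesenchyme markers had a median of 1.91 over both times with 1 called. They summed to 18.5 to 97.9 CPM in HM-Wnt and 79.9 to 269 CPM in MM. Their part in the differences of the members was not tested.

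The third set of comparisons asked whether more mesenchyme, the fibrotic-like condition, changed the lipid genes. The 8 mesenchyme markers summed to 149.8, 980.5 and 330.5 CPM in homeostatic and 2718, 6603 and 315 CPM in fibrotic-like assembloids at 1 week. The third fibrotic-like library, also low in hepatocyte markers, thus showed no excess of them. At 2.5 weeks the sums were 194 to 290 CPM and 1409 to 5117 CPM. With all 12 assembloid libraries fitted together, edgeR called no member at 1 week, while DESeq2 called 7 and an edgeR fit of all 27 libraries also called 7, each of them lower in the fibrotic-like assembloids. All 36 had a negative log2 fold change in the fit of 12 libraries, with a median of -1.36 against 0.20 for all genes. Without the 3 libraries low in hepatocyte markers, 27 of 36 members were called at 1 week, all of them lower in the fibrotic-like assembloids, beside 17.7% of all genes tested. Hepatocyte markers were lower in the same fibrotic-like libraries. The 3 libraries were left out after the data were seen, for low levels of hepatocyte genes, so this count is not an independent test. At 2.5 weeks edgeR called no member with or without these libraries. In simulated data for the fit of 12 libraries, differences were added to the fibrotic-like assembloids at 1 week. There edgeR recovered 0% of added differences of 1 and 0% of those of 2 on the log2 scale. DESeq2 recovered 1% and 28%, with 61 and 93 false calls, so its 7 calls may include false ones. An edgeR count of 0 at 1 week therefore cannot tell equal levels from differences of this size. The comparison at 2.5 weeks and the fits without the 3 libraries were not simulated, so their counts of 0 are not taken to show equal levels.

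With all libraries at 1 week, 0 members and 0.0% of all genes passed in edgeR, 13 members had an unadjusted p under 0.05, DESeq2 called 7 members and limma on the TPM scale 0. The lowest members were Thrsp at -2.89 ± 1.83, Acacb at -2.46 ± 1.58 and Fasn at -2.13 ± 0.82 (log2 fold change, SE), with adjusted p of 0.52, 0.52 and 0.31. Fasn was at 1112, 94.1 and 458 CPM in homeostatic and 139, 152 and 106 CPM in fibrotic-like assembloids, and the second homeostatic library was below all 3 fibrotic-like ones. Thrsp was at 743, 0.0373 and 441 CPM and 55.2, 39.2 and 72.0 CPM, and Acacb at 43.1, 0 and 28.8 CPM and 3.78, 6.58 and 3.09 CPM, where the same library held 2 reads and none. In 4 of the 11 squalene and sterol enzymes and 4 of the 7 mevalonate and isoprenoid enzymes, the groups did not overlap even with this library. In every other member, all fatty acid genes and regulators included, the groups overlapped. The share of all genes without overlap was not computed. Hmgcs1 was at 1152, 389.6 and 868 CPM and 271, 205 and 238 CPM (-1.82 ± 0.45), Fdps at 1055, 543 and 1034 CPM and 271, 267 and 242 CPM (-1.81 ± 0.39), and Sqle at 554, 217 and 497 CPM and 167, 208 and 137 CPM (-1.37 ± 0.40), with adjusted p of 0.27, 0.27 and 0.27.

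Leaving out only the second homeostatic library gave 19 called members, all lower, beside 8.01% of all genes. Leaving out all 3 libraries, which left 2 against 2 at 1 week, gave the 27, with a median log2 fold change of -1.50 against 0.13 for all genes. Thrsp was lowest (-3.65 ± 0.52 (SE; adjusted p = 0.0067)), followed by Acacb (-2.79 ± 0.50 (SE; adjusted p = 0.011)), Fasn (-2.43 ± 0.51 (SE; adjusted p = 0.018)), Elovl6 (-2.28), Acaca (-2.12) and Hmgcs1 (-2.09). Fatty acid and cholesterol genes were both among them: all 7 mevalonate and isoprenoid enzymes were called, and Mlxipl (-1.95) and Insig1 (-1.64) as well. The 9 that were not called were Scd1, Sc5d, Me1, Fads2, Dhcr7, Ebp, Srebf1, Srebf2 (-0.28) and Scd2 (-0.06). In the same fit the 7 hepatocyte markers had a median log2 fold change of -1.57 with 3 called, the 8 mesenchyme markers 3.93 with 8 called, the 6 cholangiocyte markers 1.31 with 1 called, and the 31 other pathway genes -0.81 with 19 called. In these 2 libraries a group, hepatocyte markers summed to 75942 and 37219.6 CPM in homeostatic and 16734 and 19773 CPM in fibrotic-like assembloids. The part of the cell types in the differences of the members was not tested. On the log2(TPM + 1) scale with all libraries, 18 members were above 0 and 18 below, with a median of 0.085 against 0.87 for all genes, so the direction was lower than that of all genes on either scale.

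Taken over the 36 members, the median log2(CPM + 1) of a library was 7.81, 5.02 and 7.67 in homeostatic and 6.32, 6.23 and 5.83 in fibrotic-like assembloids at 1 week, 7.97, 7.65 and 8.06 and 7.53, 6.32 and 7.02 at 2.5 weeks, and 7.88, 8.06 and 7.47 in MM HepOrgs at 1 week. The 3 libraries low in hepatocyte markers were among the low ones, and the first 2 fibrotic-like libraries at 1 week were as low as the second at 2.5 weeks.

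**Figure D5:**
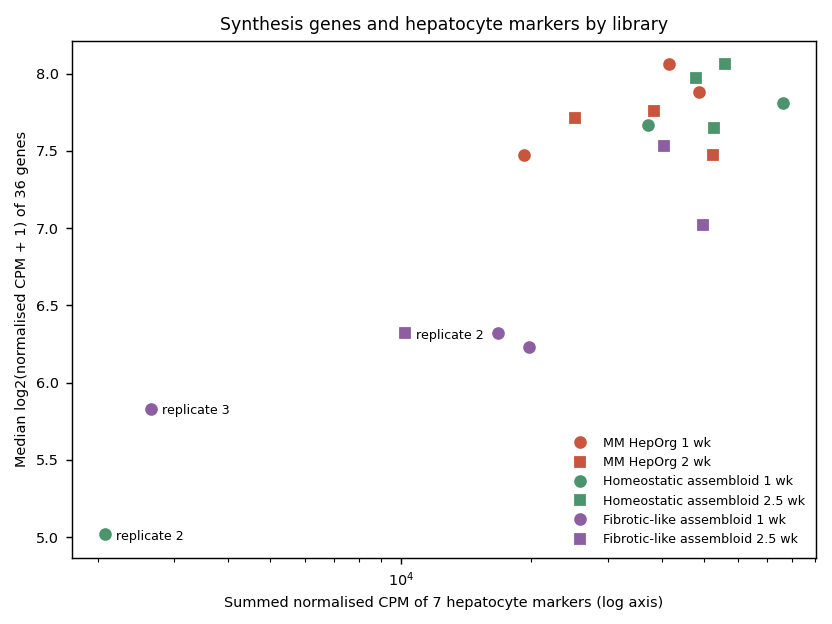
Median log2(CPM + 1) of the 36 members in each MM HepOrg and assembloid library (vertical axis) against the summed CPM of 7 hepatocyte markers (horizontal log axis); colours are conditions, circles 1 week and squares 2 or 2.5 weeks, and the 3 libraries low in hepatocyte markers carry their replicate number. Libraries with low hepatocyte markers lie at the lower left, and the 3 fibrotic-like libraries at 1 week lie below all HepOrg libraries.

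At 2.5 weeks 0 members and 0.0% of all genes were called in edgeR, 1 member had an unadjusted p under 0.05 and DESeq2 called 0. The median of the members was -0.86, with Acacb at -1.71 ± 1.54 and Fasn at -1.61 ± 0.80 (log2 fold change, SE). Fasn was at 701, 890.3 and 1672 CPM in homeostatic and 562, 107 and 423 CPM in fibrotic-like assembloids, with no overlap. Without the 3 libraries the median was -0.54, and 0 members were called. In that fit 5 of 8 mesenchyme markers and 0 of 7 hepatocyte markers were called. How many added differences it would recover was not simulated. Over time, 0 members and 0.0% of genes were called in homeostatic assembloids (0 members at an unadjusted p under 0.05 and 0 by DESeq2). In fibrotic-like assembloids 0 members and 0.0% of genes were called as well, with 8 members at an unadjusted p under 0.05 and 0 by DESeq2, and all 36 members had a positive log2 fold change with a median of 0.96. Without the 3 libraries 2 members rose in them, Thrsp by 3.16 ± 0.51 (SE; adjusted p = 0.037) and Pmvk, the phosphomevalonate kinase, by 1.02 ± 0.17 (SE; adjusted p = 0.041), beside 1.01% of all genes. The difference of the mesenchyme effect between the times was tested directly and gave 0 members and 0.0% of genes. There 0 members had an unadjusted p under 0.05 in edgeR and DESeq2 called 0. In simulated data the fit with all assembloid libraries recovered 0% of the differences added to the fibrotic-like assembloids at 1 week. The comparisons of this paragraph were not simulated themselves, so their edgeR counts of 0 are not taken to show equal levels.

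Assembloids at 1 week were last compared with HepOrgs kept in the same medium for the same time. In simulated data for this fit, edgeR recovered 0% of added differences of 1 and 5.5% of those of 2 on the log2 scale. A count of 0 with all libraries fitted therefore cannot show that levels were alike. The differences were added to the fibrotic-like assembloids at 1 week. Neither homeostatic assembloids against HepOrgs nor a fit without the 3 libraries was simulated. Between homeostatic assembloids and MM HepOrgs 0 members and 0.0% of all genes were called in edgeR, with 1 member at an unadjusted p under 0.05 and 0 by DESeq2, and without the 3 libraries it was again 0. Scd2 at -1.18 ± 0.40 and Acaca at -1.15 ± 1.15 (log2 fold change, SE) were among the 3 lowest. Between fibrotic-like assembloids and MM HepOrgs 1 member, Sqle, was called lower, beside 0.751% of all genes. Sqle was at 167, 208 and 137 CPM in the fibrotic-like assembloids and 529.9, 625 and 559.6 CPM in the HepOrgs, without overlap (-1.79 ± 0.34 (SE; adjusted p = 0.032)). This call was lost in each fit that left out 1 of the 6 libraries, and with a replicate block (adjusted p = 0.052). Fasn was at -3.06 ± 0.71 (SE; adjusted p = 0.053). Without the 3 libraries 28 members were called, all lower, beside 30.5% of all genes, with Fasn at -2.95 ± 0.44 (SE; adjusted p = 0.0010), Thrsp at -2.92 ± 0.46 (SE; adjusted p = 0.0011) and Acacb at -2.77 ± 0.53 (SE; adjusted p = 0.0029). In that fit the hepatocyte markers had a median of -0.65 with 1 of 7 called and the mesenchyme markers 5.16 with 8 of 8 called.

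The SREBP genes, Mlxipl and Insig1 were also followed through the assembloids. At 1 week Srebf1 was at 129.5, 0 and 70.7 CPM in homeostatic and 48.6, 76.4 and 38.0 CPM in fibrotic-like assembloids, and at 2.5 weeks at 94.5, 120.1 and 134 CPM and 84.1, 94.4 and 89.0 CPM. Mlxipl was at 56.5, 0.0746 and 78.0 CPM and 14.7, 20.1 and 7.72 CPM at 1 week and at 67.3, 70.2 and 123 CPM and 53.0, 9.85 and 55.2 CPM at 2.5 weeks. Insig1 was at 176, 21.1 and 149 CPM and 43.7, 60.4 and 31.6 CPM at 1 week and at 166, 137 and 187 CPM and 120.0, 71.7 and 105 CPM at 2.5 weeks. In these 3 genes the low libraries of each group were those low in hepatocyte markers, except for Srebf1 at 2.5 weeks. Srebf2 behaved in the opposite way, at 30.4, 63.2 and 30.6 CPM and 24.4, 25.9 and 42.0 CPM at 1 week and at 28.4, 34.0 and 26.7 CPM and 31.6, 54.0 and 29.0 CPM at 2.5 weeks: its highest value in each of these 3 groups was in the library low in hepatocyte markers. Scd2 had no such common pattern. In the fibrotic-like assembloids at 2.5 weeks it was highest in the library low in hepatocyte markers, at 241, 507 and 177 CPM. At 1 week it was lowest in the libraries low in these markers. It was then at 190.5, 107 and 224 CPM in homeostatic and 199.7, 197 and 138 CPM in fibrotic-like assembloids.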

How the data were processed

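Bulk RNA was sequenced by the authors (SMART-seq2 with Nextera libraries, STAR on GRCm39 and featureCounts, per the study's methods and processing notes). They deposited raw read counts per gene and TPM for 37 libraries in 1 table, of which 27 were used and 10, of other experiments, were not. The 36 genes and the gene lists were chosen with earlier results of these data known.

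Counts were tested with edgeR 4.0.16 in R 4.3.3 (glmQLFit and glmQLFTest, TMM, filterByExpr at min.count 10 and min.total.count 15, prior.count 2, Benjamini-Hochberg adjustment over all genes tested, threshold 0.05). HepOrgs with fresh hepatocytes, HepOrgs alone, assembloids alone, and MM HepOrgs with assembloids were fitted separately. Printed CPM were scaled by TMM over the 27 libraries. They replace the TPM planned for each library, because the deposited TPM used a length within 5% of the whole gene span for 80.8% of genes (27 of the 36 members) and lack a correction for composition. The TPM of 4 regulators are given beside them. Alternatives were DESeq2 1.42.0, its size factors in edgeR, other count filters, limma 3.58.1 on log2(TPM + 1) and log2(TPM + 0.1) for genes of at least 1 TPM in 3 libraries, all 27 libraries in 1 fit, only the groups compared, a replicate block, and leaving out each library. Leaving out the 3 libraries low in hepatocyte markers was chosen after seeing the data. The scripts were tested on simulated data with differences of 1 or 2 on the log2 scale, added to 1 comparison at 1 week in each fit. At these sizes edgeR recovered 26.5% and 93.5% for HepOrgs with fresh hepatocytes and 20.5% and 94.5% for HepOrgs alone. It recovered 0% and 0% for assembloids alone, and 0% and 5.5% for MM HepOrgs with assembloids. DESeq2 recovered 1% and 28% for assembloids alone, with 61 and 93 false calls. For MM HepOrgs with assembloids DESeq2 recovered 6.5% and 41%, with 23 and 76 false calls.

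Library values are given for Srebf1, Srebf2, Insig1 and Mlxipl, for the 3 highest and 3 lowest members called in a comparison, and for a few further members chosen after their values were seen. HepOrg libraries that share a replicate number in the labels correlated in their deviations from the group means in 18 of 18 pairs (0.1269 to 0.5027, limit 0.1), against 2 of 36 other pairs over 0.1. They were taken as paired only in the fit with the replicate block. The printed fold changes, SE and adjusted p between the media come from the fit without that block. Standard errors come from the fitted spread between libraries, which includes counting error, and the 2 were not separated.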

Additional observations from a re-analysis of the deposited data

How the results depend on the processing

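With all 27 libraries in 1 fit, which adds the assembloids' spread, 6, 8, 5 and 4 members were called against fresh hepatocytes (HM-Wnt at 1 and 2 weeks, MM at 1 and 2 weeks), 0, 0 and 0 between the media (1 week, 2 weeks, both), 7 between the assembloids at 1 week and 5 between fibrotic-like assembloids and MM HepOrgs. Over all 14655 genes of that fit, 2893, 3248, 2005 and 1890 were called against fresh hepatocytes. With only the groups compared, 0 were called between the media at 1 week and 22 between fibrotic-like assembloids and HepOrgs. DESeq2 called 17 between the media at 2 weeks, 7 between the assembloids at 1 week and 11 between fibrotic-like assembloids and HepOrgs. The last comparison gave 4 with at least 10 counts in every library, 2 on log2(TPM + 1) and 0 with the replicate block. In simulated data with added differences of 1 and 2, DESeq2 made 61 and 93 false calls for assembloids alone. For MM HepOrgs with assembloids it made 23 and 76. The block gave 16 between the media at 2 weeks and turned no call in direction. It also lost Acly in HM-Wnt at 1 week and Mvk at 2 weeks in both media against fresh hepatocytes. Without the 3 libraries low in hepatocyte markers, 27 were called between the assembloids at 1 week, 2 between the times of fibrotic-like assembloids and 28 between these and HepOrgs. Causes were not tested.

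Leaving out 1 library gave 14 to 18, 15 to 19, 14 to 19 and 14 to 18 members against fresh hepatocytes, 3 to 9 between the media at 1 week (3 without the first MM library and 4 without the second HM-Wnt library), 7 to 9 at 2 weeks and 12 to 16 over both times. It gave 0 to 19 between the assembloids at 1 week (19 without the second homeostatic library) and 0 to 0 in the others, fibrotic-like assembloids against HepOrgs included. Over all genes, 5906 to 6527, 6043 to 6813, 4715 to 5571 and 4471 to 5368 were called against fresh hepatocytes, of 13642 to 13792 tested. Of 95 calls of single members, 75 were kept in every such fit. Among the 140 pairs of a gene and a comparison followed (the 95 calls and others named in the text), signs turned as follows, the first value of a pair being on log2(TPM + 1) and the second on log2(TPM + 0.1). Acacb in MM against fresh hepatocytes turned to 0.22 and 0.46 at 1 week and 0.20 and 0.46 at 2 weeks, and to 0.97 and 1.00 without the second fresh library (ranges without 1 library -1.19 to 0.97 and -1.06 to 1.00). Fasn in HM-Wnt turned to 0.24 and 0.24 at 1 week and 0.62 and 0.63 at 2 weeks, and to 0.59 and 0.61 without the second fresh library (-1.04 to 0.59 and -1.03 to 0.61). Acly in MM ran from -0.21 to 0.96 and from -0.20 to 0.99 without 1 library. Thrsp between the assembloids at 1 week turned to 0.73 and 1.57, where 18 and 20 of all 36 members turned positive on these scales. Same-numbered libraries correlated over 0.1 in 19 of 30 pairs with fresh hepatocytes included, 6 of 18 among assembloids and 11 of 45 with MM HepOrgs, so the numbers were not taken as pairs there.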
